A study of Mus musculus with 14 samples.

Results

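The genes described here are 9 genes of peroxisomal fatty acid oxidation and of the peroxisome membrane in mouse liver, namely Ehhadh, Hsd17b4, Acaa1a, Acaa1b, Decr2, Crot, Abcd2, Abcd3 and Pex11a. They were chosen by name, as the genes of one pathway, with earlier results of these data known. Their probes were found by gene name or current symbol (Acaa1a also under its older name, Acaa1). All 9 were present among 36097 genes on the array and all 9 passed the filter on dim probes, as did 32676 genes in all. The study fed 1-year-old male C57BL/6 mice one of 3 diets, and liver RNA of 14 mice was hybridised to Agilent whole-genome mouse arrays, 1 mouse per array. The standard diet (SD, 5 mice) was AIN-93G, given ad libitum. The high-calorie diet (HC, 5 mice) was AIN-93G changed so that fat supplied 60% of calories. The third group (HCR, 4 mice) ate the HC diet with 0.04% resveratrol, a polyphenol found in grapes, mixed in. The labels name no genetic change in any group. Each mouse's RNA was labelled with Cy3 and set against Cy5-labelled RNA pooled from 5 standard-diet livers, so each value is a log2 ratio of an animal to that pool. These ratios carry a constant offset for each probe (the standard-diet mean was 0.92 for Decr2 and -0.84 for Crot), so the level of one probe was not read against that of another. Values were compared between diets or arrays. Tests of gene pairs and means of marker genes combine probes, and these too were read only between diets or arrays.

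Peroxisomes shorten very long chain and branched fatty acids that mitochondria handle poorly. In each cycle a bifunctional enzyme carries out the middle steps and a thiolase cleaves off acetyl-CoA, after which the shortened chain leaves as a carnitine ester for the mitochondria. In rodent liver the nuclear receptor PPAR-alpha, which binds fatty acids, is a known activator of many of these genes, and its ligands are called peroxisome proliferators for that reason.

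All 9 genes were detected: the probe of each was above background in both channels on all 14 arrays, and none was saturated. Detection does not make all sizes equally firm, and that of Abcd3 moved with the processing, as given below. The labels call the animals replicates, and p-values measure the spread between these mice. Hepatocyte markers were above background on all 14 arrays for each of the 5 on the array (Alb, Apoa1, Ttr, Tat and Cyp2e1), and of these Apoa1 passed the test, with a high-calorie minus standard difference of -0.64. High-calorie arrays were on the whole brighter, with a median net Cy3 signal of 39.3 to 93.9 intensity units against 30.1 to 62.9 on standard-diet arrays and 41.5 to 73.4 on resveratrol arrays. Array HCR 3 stood apart from the rest. All 7 acute phase genes examined after the data were seen (Saa1, Saa2, Saa3, Lcn2, Orm2, Hp and Fgg, secreted by the liver during inflammation) had their highest value of the 14 arrays there. Lcn2 was at 2.60 on that array and between -2.01 and -0.45 on the other 13. Values of the resveratrol group are given with HCR 3, and also without it where leaving it out ended a call or moved a value by over 1.5 times, and the part played by that animal's state in them was not tested. In whole liver, fewer cells of a type and less RNA per cell cannot be told apart.

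The sequences just upstream of 4 members that the results turn on are shown here, since these genes moved together on the high-calorie diet. Each is the 250 bases before the RefSeq start of the gene in assembly GRCm38.p6, written 5′ to 3′ on the strand of the gene, with every CCAAT box (CCAAT, or ATTGG where it lies on the other strand) in capitals.

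Ehhadh (chr16:21787835-21788084, minus strand): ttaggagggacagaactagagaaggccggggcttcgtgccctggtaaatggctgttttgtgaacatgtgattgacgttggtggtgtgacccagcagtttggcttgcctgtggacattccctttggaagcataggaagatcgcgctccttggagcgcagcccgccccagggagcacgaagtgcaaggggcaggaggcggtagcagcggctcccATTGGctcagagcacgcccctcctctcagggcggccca
Acaa1a (chr9:119341044-119341293, plus strand): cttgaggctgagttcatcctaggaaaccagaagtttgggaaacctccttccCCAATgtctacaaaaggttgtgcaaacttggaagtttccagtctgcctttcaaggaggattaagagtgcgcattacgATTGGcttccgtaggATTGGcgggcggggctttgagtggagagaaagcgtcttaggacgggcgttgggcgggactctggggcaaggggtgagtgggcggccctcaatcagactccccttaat
Acaa1b (chr9:119157094-119157343, minus strand): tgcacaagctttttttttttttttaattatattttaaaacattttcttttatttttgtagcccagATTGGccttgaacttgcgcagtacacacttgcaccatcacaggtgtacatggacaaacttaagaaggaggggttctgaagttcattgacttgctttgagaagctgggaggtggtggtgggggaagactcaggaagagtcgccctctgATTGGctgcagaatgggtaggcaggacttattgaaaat
Pex11a (chr7:79743132-79743381, minus strand): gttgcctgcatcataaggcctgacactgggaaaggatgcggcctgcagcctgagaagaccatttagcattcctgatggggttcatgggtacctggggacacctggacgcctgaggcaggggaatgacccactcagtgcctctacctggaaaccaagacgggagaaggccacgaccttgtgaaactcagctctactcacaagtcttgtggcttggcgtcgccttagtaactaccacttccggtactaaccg

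The pair of thiolase genes differed in these windows. Acaa1a had 53.6% G and C and 10 CpG dinucleotides, whereas Acaa1b had 41.6% and 2. In the same window the box nearest the start lay 38 bases before it in both Ehhadh and Acaa1b and 107 bases before it in Acaa1a, and Pex11a had none. RefSeq windows were matched for 7 of the 9 members (8 windows, since Abcd3 has 2 starts), and not for Hsd17b4 and Abcd2. A CCAAT box on either strand was present in 4 of these 8 windows (Ehhadh, Acaa1a, Acaa1b and Crot) against 33.9% of all 32841 windows of that length, and GGGCGG on either strand in 4 of 8 (Ehhadh, Acaa1a, Crot and Decr2) against 32.7%. Both motifs were chosen after the sequences had been read. The half-site of nuclear receptors, AGGTCA on either strand, was in 0 of the 8 windows and in 14.03% of all windows. The spaced repeat that PPAR-alpha and its partner bind, AGGTCANAGGTCA with up to 3 mismatches in its 12 named bases (it contains the half-site), was in 0 of 8 and in 21.3% of all. The absence of these letters says nothing of sites elsewhere in or around the genes.

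The first comparison asked what the high-calorie diet did to these genes. Of the 9, 7 rose on the high-calorie diet and none fell: Ehhadh, Hsd17b4, Acaa1a, Acaa1b, Decr2, Crot and Pex11a, from 1.48-fold (Decr2) to 2.61-fold (Acaa1b). The 7 comprise enzymes of the middle and last steps, the accessory reductase, the exporting transferase and a protein of peroxisome division. The transporters Abcd2 and Abcd3 did not pass. A rise was called at an adjusted p under 0.05 in limma, with Benjamini-Hochberg adjustment over all 32676 genes tested, and 5.37% of those genes were called higher and 4.06% lower. In the same 7 genes every high-calorie mouse lay above every standard-diet mouse, an arrangement that 5.17% of all genes showed. The median difference over the 9 members was 0.63 on the log2 scale, against -0.002 over all genes tested. The members were chosen with earlier results of these data known, so these shares and medians are a description and not a test of the set.

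**Figure D1:**
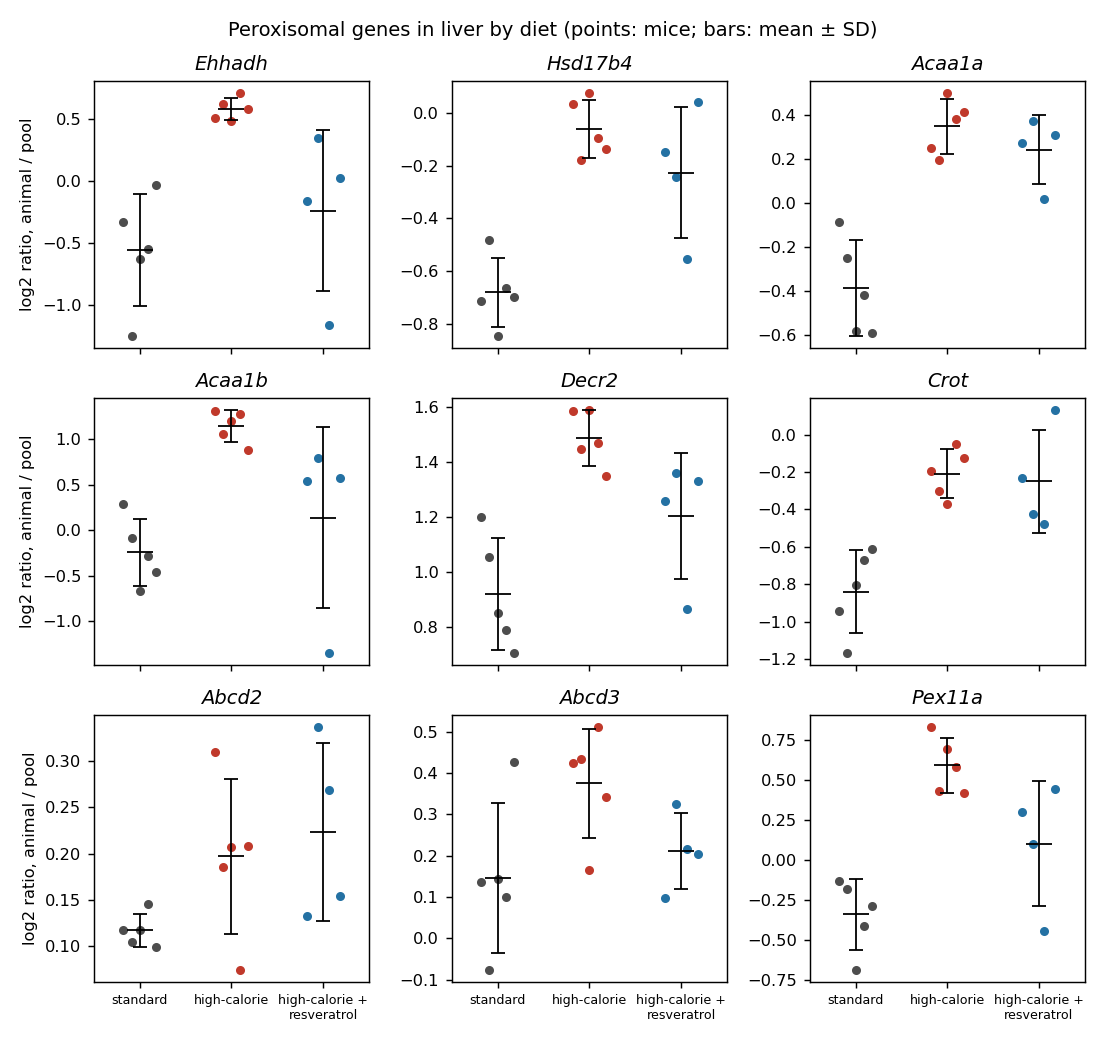
Log2 ratio of animal to pool (vertical axis) for each of the 9 genes in each mouse, by diet, with the mean and SD of each group as bars; each panel has its own scale. In all panels but those of Abcd2 and Abcd3 the 5 high-calorie mice lie above the 5 standard-diet mice, and 1 resveratrol mouse lies far below the others for Ehhadh (-1.16) and Acaa1b (-1.34).

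Ehhadh encodes the L-bifunctional enzyme, which hydrates and dehydrogenates straight-chain acyl-CoAs. In the standard-diet mice its log2 ratios were -0.33, -1.25, -0.63, -0.55 and -0.030, a wide spread for mice on one diet. On the high-calorie diet they were 0.51, 0.62, 0.49, 0.71 and 0.58, so the 5 mice lay within 0.22 of each other and above all standard-diet mice. The difference was 1.14 ± 0.25 (SE, n = 5 and 5), a 2.20-fold rise with an adjusted p of 0.0127 in limma. Hsd17b4 encodes the D-bifunctional protein, which carries out the same steps and also serves branched chains and bile acid precursors. Its standard-diet ratios were -0.71, -0.48, -0.84, -0.67 and -0.70. Its high-calorie ratios were 0.032, -0.18, 0.075, -0.094 and -0.14. All high-calorie values were above all standard-diet values here too, and the rise was smaller in size and tighter between mice, 0.62 ± 0.096 (SE, n = 5 and 5), or 1.54-fold, with a limma adjusted p of 0.00159.

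Acaa1a and Acaa1b encode near-identical thiolases, the enzymes of the last step. Acaa1a stood at -0.086, -0.25, -0.58, -0.42 and -0.59 on the standard diet and at 0.25, 0.20, 0.50, 0.38 and 0.42 on the high-calorie diet. Acaa1b stood at 0.29, -0.085, -0.67, -0.28 and -0.46 on the standard diet and at 1.31, 1.06, 1.20, 1.27 and 0.88 on the high-calorie diet. For both genes the groups did not overlap, and SD 3 and SD 5 were the lowest mice. Acaa1a rose by 0.73 ± 0.099 (SE, n = 5 and 5; 1.66-fold; limma adjusted p = 0.000641) and Acaa1b by 1.38 ± 0.32 (2.61-fold; limma adjusted p = 0.0179). In the model the 3 diets share one estimate of the spread, so these SEs also hold the spread of the resveratrol mice. For Acaa1b the SD between mice was 0.37 on the standard diet, 0.17 on the high-calorie diet and 0.99 with resveratrol. Without SD 3, 6 of the 9 members were called, and Acaa1b was the one lost (1.28, limma adjusted p = 0.0518). Calls over all genes fell too without that mouse, from 3084 to 1508.

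Decr2, the peroxisomal dienoyl-CoA reductase, prepares unsaturated chains for the cycle. It was at 1.20, 1.05, 0.85, 0.79 and 0.70 on the standard diet and at 1.59, 1.45, 1.59, 1.47 and 1.35 on the high-calorie diet, a rise of 0.57 ± 0.10 (SE, n = 5 and 5; limma adjusted p = 0.00542). Crot, carnitine octanoyltransferase, converts the shortened chains to carnitine esters that can leave the peroxisome. It was at -0.94, -1.17, -0.80, -0.67 and -0.61 on the standard diet and at -0.19, -0.30, -0.37, -0.051 and -0.12 on the high-calorie diet. The lowest high-calorie mouse was thus above the highest standard-diet mouse for both genes, and Crot rose by 0.63 ± 0.12 (SE; limma adjusted p = 0.00655).

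Pex11a encodes a peroxisomal membrane protein that promotes elongation and division of the organelle. Its standard-diet ratios were -0.13, -0.18, -0.68, -0.41 and -0.29, and its high-calorie ratios were 0.83, 0.43, 0.69, 0.58 and 0.42. All high-calorie mice were again above all standard-diet mice, and the rise was 0.93 ± 0.15 (SE, n = 5 and 5), or 1.91-fold, with a limma adjusted p of 0.00212. The Pex11a probe was spotted 10 times on every array, so the noise of single spots could be read (on HC 3 a flagged spot left 9). The SD between spots of one array ran from 0.012 to 0.050, whereas the SD between mice of one diet ran from 0.17 to 0.39. Spots of an array share one labelling and hybridisation, so the first SD leaves out error at those steps.

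**Figure D2:**
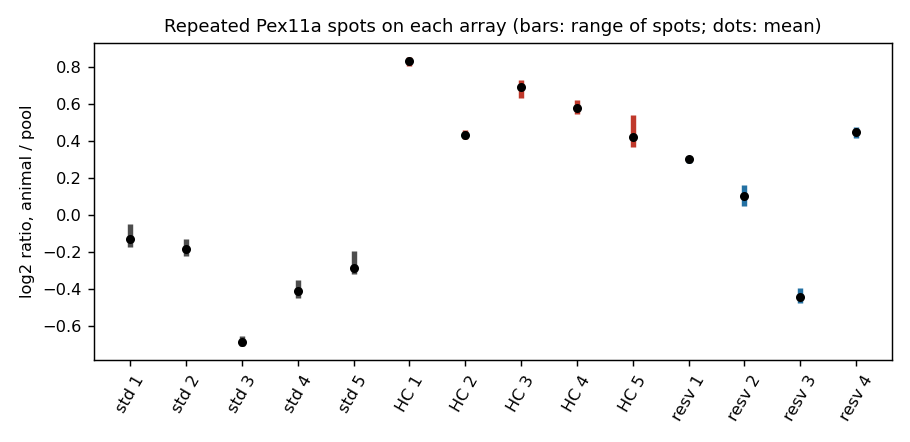
Log2 ratio of animal to pool for the repeated Pex11a spots of each array (std, standard diet; HC, high-calorie; resv, high-calorie with resveratrol); vertical bars span the lowest to the highest spot and dots are the array means. Array HCR 3 (-0.44) lies below the other 3 resveratrol arrays (0.10 to 0.45).

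Abcd2 and Abcd3 encode ABC transporters that carry fatty acyl-CoAs into the peroxisome. Abcd2 ranged from 0.10 to 0.15 in the standard-diet mice and from 0.075 to 0.31 in the high-calorie mice, with a difference of 0.08 ± 0.048 (SE, n = 5 and 5; limma adjusted p = 0.290) and a 95% interval of -0.022 to 0.18. Abcd3, also known as PMP70 and an abundant protein of the peroxisome membrane, ranged from -0.075 to 0.43 and from 0.17 to 0.51. Its difference was 0.23 ± 0.084 (SE; limma adjusted p = 0.0943), with a 95% interval, not adjusted for the number of genes, of 0.050 to 0.41. In both genes the diets overlapped. The size for Abcd3 moved with the processing, from 0.061 ± 0.021 (SE) with no background correction to 0.37 ± 0.14 with the offset of the background correction at 10 and 0.52 ± 0.19 with the scanner's processed signals, and it passed in none of these 3. With array quality weights it passed (0.21 ± 0.072; limma adjusted p = 0.0475), when 8 members were called. Over all genes 7035 of 32676 were then called, against 3084 without the weights.

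These differences were also read within processing days, which the file headers give, and within slide series made here from the slide numbers. Arrays were processed by Feature Extraction on 2 days, with 3 standard-diet, 2 high-calorie and 4 resveratrol arrays on the first and 2, 3 and 0 on the second. Ehhadh differed by 1.11 within the first day and by 1.20 within the second, and Acaa1b by 1.51 and 1.32. All 7 genes kept their direction within both days; 7 members were called within the first (Abcd3 in place of Decr2), with 1764 of 32676 genes in all, and 0 within the second, where 5 arrays remained and 55 genes were called in all. Slide numbers were split at their widest gap into 2 series, which the files do not name. The first held 0 standard-diet, 2 high-calorie and 3 resveratrol arrays and the second 5, 3 and 1. Within the second series 7 members were called, of 837 genes in all, with Ehhadh at 1.12 and Acaa1b at 1.29. With the brightness of each array added to the model, 449 genes in all were called, against 3084 without it, and 4 members (Hsd17b4, Acaa1a, Decr2 and Pex11a). The other 3 then had differences of 0.94 ± 0.30 (SE) for Ehhadh, 1.49 ± 0.40 for Acaa1b and 0.48 ± 0.14 for Crot, against 1.14, 1.38 and 0.63 without it. What part brightness had in them was not tested.

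The second comparison asked whether these genes differed once resveratrol was mixed into the fat-rich food. None of the 9 passed limma's test in the resveratrol mice against the high-calorie mice (0 called, against 2.22% of all genes called lower and 3.15% called higher), and 4 had an unadjusted p under 0.05: Ehhadh, Acaa1b, Decr2 and Pex11a. No share of all genes at that unadjusted threshold is given, here or below, so such counts have no background to be set against. The largest differences were negative and belonged to Acaa1b (-1.003) and Ehhadh (-0.82). The median over the 9 members was -0.17, against -0.007 over all genes. Both groups here share the high-calorie arrays with the first comparison, so the values of both comparisons are not independent.

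Ehhadh stood at -0.16, 0.35, -1.16 and 0.025 in the 4 resveratrol mice, all of them below the 5 high-calorie mice. The difference was -0.82 ± 0.26 (SE, n = 4 and 5; limma adjusted p = 0.0817). Acaa1b stood at 0.54, 0.79, -1.34 and 0.57, and likewise all 4 mice lay below the high-calorie range, with a difference of -1.003 ± 0.34 (limma adjusted p = 0.0998). These were the only members whose resveratrol mice all lay below the high-calorie mice, which 6.13% of all genes showed. Both differences were smaller without HCR 3, at -0.51 for Ehhadh (limma adjusted p = 0.190) and -0.51 for Acaa1b (limma adjusted p = 0.128), and again 0 members were called, against 1.16% of all genes called lower. Pex11a was at 0.30, 0.10, -0.44 and 0.45, so that HCR 4 reached into the high-calorie range, and its difference was -0.49 ± 0.16 (limma adjusted p = 0.0870), or -0.31 ± 0.13 without HCR 3 (limma adjusted p = 0.211).

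Decr2 was at 1.26, 1.36, 0.86 and 1.33 with resveratrol, and its difference was -0.29 ± 0.11 (SE, n = 4 and 5; limma adjusted p = 0.147). Hsd17b4 was at -0.15, -0.24, -0.56 and 0.040, with a difference of -0.17 (95% interval -0.38 to 0.051). For Crot the values were -0.23, -0.42, -0.48 and 0.13 and the difference was -0.04 (95% interval -0.32 to 0.23). In these 3 genes the resveratrol mice overlapped the high-calorie mice. Without HCR 3 the differences were -0.17 for Decr2 (limma adjusted p = 0.367), -0.057 for Hsd17b4 and 0.034 for Crot. Acaa1a moved likewise, from -0.11 to -0.031. Abcd2 ranged from 0.13 to 0.34 and Abcd3 from 0.099 to 0.32 with resveratrol, with differences of 0.03 and -0.16 that did not pass. The difference for Abcd2 was 0.011 without HCR 3. In 7 of the 9 genes HCR 3 was the lowest of the 4 resveratrol mice, the exceptions being both transporters. No share of all genes with HCR 3 lowest is given, so this count has no background to be set against.

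Within the first processing day the resveratrol minus high-calorie difference was -0.85 for Ehhadh and -1.15 for Acaa1b, and within the first slide series it was -1.04 and -1.37. These subsets allowed few calls of any gene: limma called 4 of 32676 genes within the day and 0 within the slide series, none of them members. Leaving out HCR 2 brought Ehhadh to a call (-1.01, limma adjusted p = 0.0458) and leaving out HCR 4 brought Pex11a to one (-0.61, limma adjusted p = 0.0434). Limma then called 1430 and 2038 genes in all (667 and 848 of them lower), against 1755 (726 lower) with every mouse. No other single mouse changed the count of 0.

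**Figure D3:**
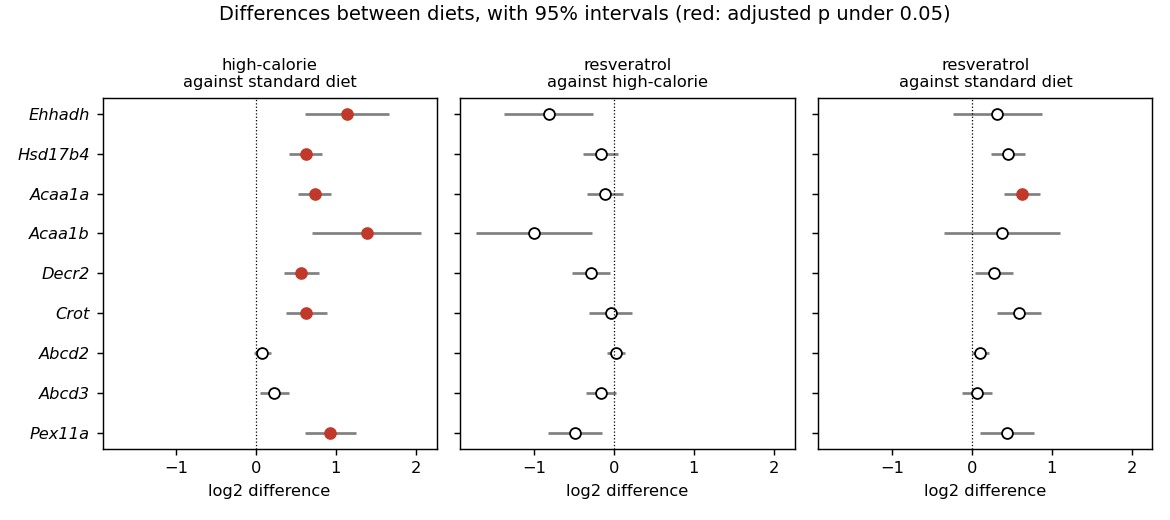
Log2 difference between diets for each of the 9 genes (horizontal axis), with 95% intervals from limma that are not adjusted for the number of genes; red points have an adjusted p under 0.05. In the first panel 7 genes are red, in the second none, and in the third Acaa1a alone (0.63).

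Against the standard diet, the resveratrol mice had 1 of the 9 genes called, Acaa1a, where 0.125% of all genes were called higher. Acaa1a stood at 0.27, 0.37, 0.016 and 0.31 with resveratrol, above all 5 standard-diet mice, and the difference was 0.63 ± 0.10 (SE, n = 4 and 5; limma adjusted p = 0.0291). Crot had a difference of 0.59 ± 0.13 and also lay above all standard-diet mice, as 1.08% of genes did, yet did not pass (limma adjusted p = 0.0860). Hsd17b4 had 0.45 ± 0.10 (limma adjusted p = 0.0936) and overlapped through HCR 3, which at -0.56 was below the highest standard-diet mouse at -0.48. The other 6 members had differences from 0.07 to 0.44. At an unadjusted p under 0.05, a looser threshold than the one behind the 0.125%, 5 of the 9 passed.

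This comparison depended on single mice more than the others did. Without HCR 3, 5 members were called higher (Acaa1a 0.70, Acaa1b 0.87, Crot 0.67, Hsd17b4 0.56 and Pex11a 0.62) against 0.422% of all genes. Ehhadh was then at 0.63 in place of 0.32 and did not pass (limma adjusted p = 0.237). Without SD 2, Hsd17b4 joined Acaa1a (2 called), where 212 genes in all were called, against 70 with every mouse. Without SD 3, SD 4, HCR 1, HCR 2 or HCR 4, the count was 0. All-gene calls were then 30, 23, 55, 41 and 28 in the same order. Within the first processing day, the only batch with both groups in sufficient number, Acaa1a differed by 0.60 and was not called (limma adjusted p = 0.144), where 12 genes in all were called. HCR 3 lay within the standard-diet range for Ehhadh, Hsd17b4, Decr2, Pex11a and Abcd3, below it for Acaa1b and above it for Acaa1a, Crot and Abcd2.

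The array held 4 probes for the thiolases, and their values with resveratrol differed. The values above came from the brighter of 2 Acaa1a probes (A_51_P327075) and from the probe assigned to Acaa1b alone (A_52_P423174). The dimmer Acaa1a probe (A_52_P155990) was at 0.83, 0.041, 0.38, 0.65 and 0.40 on the standard diet, at 1.48, 1.50, 1.39, 1.63 and 1.30 on the high-calorie diet, and at 0.81, 1.06, 0.37 and 0.95 with resveratrol. On this probe all resveratrol mice lay below all high-calorie mice, whereas on the brighter probe the groups overlapped. Its high-calorie minus standard difference was 1.00 ± 0.14 (SE). Its resveratrol minus high-calorie difference was -0.66 ± 0.15, which passed when it stood for the gene (limma adjusted p = 0.0238), against -0.11 ± 0.10 on the brighter probe (limma adjusted p = 0.593). Without HCR 3 the dimmer probe's difference was -0.52 ± 0.14 and did not pass (limma adjusted p = 0.0609). Against the standard diet the dimmer probe differed by 0.34 ± 0.15 with resveratrol and did not pass, so that the Acaa1a call of the third comparison held on 1 of 2 probes. The fourth probe (A_52_P423183), whose accessions name both genes and which was assigned to neither, showed 1.31 ± 0.28 and -0.92 ± 0.29 in the first and second comparisons, the latter -0.53 without HCR 3. Acaa1a and Acaa1b transcripts are alike enough that a probe of one may bind the other, and how much each probe reads its paralog was not tested. The choice to look at the dimmer probe was made after the data were seen.

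**Figure D4:**
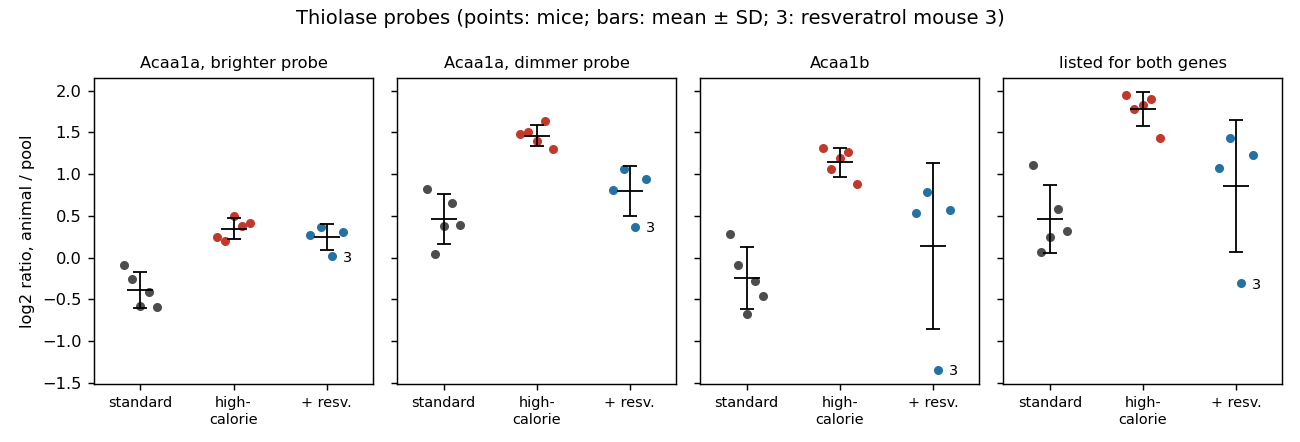
Log2 ratio of animal to pool in each mouse for the 4 thiolase probes, with the mean and SD of each diet as bars and HCR 3 marked with its number. All 4 probes are higher on the high-calorie diet, while the step from high-calorie to resveratrol is small on the brighter Acaa1a probe (-0.11) and larger on the others (-0.66 to -1.003).

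Whether partner genes moved by different amounts was tested with an exact two-sided permutation of the arrays, for 3 pairs in 3 comparisons, with adjustment over these 9 tests. Acaa1b minus Acaa1a rose from 0.14 ± 0.17 (SD, n = 5) on the standard diet to 0.79 ± 0.22 on the high-calorie diet (n = 5), a change of 0.65 with an exact p of 0.00794 and an adjusted p of 0.0357. With resveratrol it was -0.10 ± 0.84 (SD, n = 4), a change of -0.90 from the high-calorie diet (exact p = 0.00794, adjusted p = 0.0357), and both p-values are the smallest these group sizes allow. Without HCR 3 the second change was -0.48 (exact p = 0.0357). With the dimmer Acaa1a probe in place of the brighter one, the changes were 0.38 (exact p = 0.0714) and -0.34 (exact p = 0.349; 0.012 without HCR 3, exact p = 0.929), so the difference between the 2 thiolase genes rested on which Acaa1a probe was read. Ehhadh minus Hsd17b4 changed by 0.52 on the high-calorie diet and by -0.65 with resveratrol, each with an exact p of 0.0317 and an adjusted p of 0.0714, which does not pass. Without HCR 3 the latter change was -0.45 (exact p = 0.0714). Abcd2 minus Abcd3 changed by -0.15 on the high-calorie diet (exact permutation p = 0.206) and by 0.19 with resveratrol (exact permutation p = 0.0635).

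Other genes of peroxisomal fatty acid oxidation were read from a list of 21, also chosen with earlier results of these data known. On the high-calorie diet 6 rose, 1 fell and 14 did not pass. Among those with the smallest adjusted p were Crat, carnitine acetyltransferase (0.85 ± 0.12, SE; limma adjusted p = 0.000736), Acot8, a peroxisomal acyl-CoA thioesterase (0.24 ± 0.058), and Acox2, the oxidase of branched chains (0.29 ± 0.074). The one that fell was Nudt7, which hydrolyses CoA inside peroxisomes (-0.77 ± 0.21), named after its value was seen. Over the 21 the median difference was 0.18, below that of the 9 members (0.63) and above that of all genes (-0.002). With resveratrol against the high-calorie diet 1 of 21 passed, Crat, which fell by 0.51, and without HCR 3 it did not pass (-0.40; limma adjusted p = 0.0851).

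Of 12 tested peroxins, the proteins that build peroxisomes and import their contents, 4 rose on the high-calorie diet, none fell and 8 did not pass. Pex16 (0.46 ± 0.073, SE) and Pex3 (0.27 ± 0.071) act in membrane assembly, Pex11g (0.42 ± 0.078) is a relative of Pex11a, and Pex13 (0.39 ± 0.10) is part of the import machinery. With resveratrol against the high-calorie diet Pex16 fell by 0.29 (limma adjusted p = 0.0443) and 11 did not pass. Without HCR 3 Pex16 did not pass (-0.23; limma adjusted p = 0.123). Among 19 other peroxisomal enzymes and membrane proteins 3 rose and 16 did not pass, with a median of -0.027: Lonp2, the peroxisomal protease (0.64 ± 0.091), and Gnpat (0.32 ± 0.079) and Agps (0.19 ± 0.041), which start ether lipid synthesis. With resveratrol 0 of these 19 passed limma's test against the high-calorie diet (2 had an unadjusted p under 0.05).

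Mitochondrial beta-oxidation, which takes over the shortened chains, had 11 of 17 genes higher on the high-calorie diet and none lower, with a median of 0.43. Acadm, the dehydrogenase of medium chains, rose by 0.83 ± 0.11 (SE) and Cpt1a, which admits long chains to mitochondria, by 0.78 ± 0.12. Slc25a20, the carnitine carrier, rose by 0.50 ± 0.078 and Decr1, the mitochondrial counterpart of Decr2, by 0.41 ± 0.065. Of 15 other PPAR-alpha targets, with the receptor itself, 8 rose and none fell. Plin2, which coats lipid droplets, rose by 0.95 ± 0.079 and Vnn1, pantetheinase, by 1.51 ± 0.15. Slc22a5, the carnitine importer, rose by 0.42 ± 0.066. Ppara itself, named for its place in the list, rose by 0.43 ± 0.12 (limma adjusted p = 0.0413). With resveratrol against the high-calorie diet, Vnn1 fell by 0.72, Pdk4, which restrains glucose oxidation, by 0.73, and Plin2 by 0.33, while 12 of the 15 did not pass. Without HCR 3 only Vnn1 passed. None of the 17 mitochondrial genes passed limma's test there, and 10 had an unadjusted p under 0.05. Against the standard diet the resveratrol mice had few genes of 4 of these lists called: Lonp2 (0.54) of 19 and Plin2 (0.62) of 15, with 0 of 12 peroxins and 0 of 17 mitochondrial genes in limma (2 and 8 at an unadjusted p under 0.05). Without HCR 3 the counts were 1, 4, 1 and 4 in the same order, all of them higher. The medians of the 5 lists with resveratrol against the high-calorie diet ran from -0.24 (PPAR-alpha targets) to 0.043 (other peroxisomal enzymes and membrane proteins), against -0.17 in the 9 members. Without HCR 3 the median of the PPAR-alpha targets was -0.093, and that of the members was -0.17 again.

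Markers of other cell types were read beside these results. On the high-calorie diet 2 of 6 adipocyte markers rose, Cfd (2.52) and Fabp4 (1.60), 1 fell (Retn, -0.20), and Adipoq, Lep and Plin1 did not pass. The mean log2 ratio of the 6 was between -0.52 and -0.36 on standard-diet arrays, 0.015 and 0.39 on high-calorie arrays and 0.016 and 0.68 on resveratrol arrays. Among 4 endothelial markers 2 rose (Pecam1 0.22 and Cdh5 0.41), and among 4 tested stellate cell markers 2 rose (Lrat 0.36 and Col1a1 0.24), while none of the 7 Kupffer cell, 4 bile duct cell, 4 lymphocyte and 2 red blood cell markers tested passed. The endothelial mean was between 0.11 and 0.29 on standard-diet arrays and between 0.31 and 0.47 on high-calorie arrays, so these groups did not overlap. The Kupffer mean did not overlap either, at -1.09 to -0.74 on the standard diet and -0.736 to -0.44 on the high-calorie diet, though by a narrow margin. On resveratrol arrays the Kupffer mean was -1.02 and -1.04 on HCR 1 and HCR 2, and -0.053 and 0.13 on HCR 3 and HCR 4, above the other 12 arrays. With resveratrol against the high-calorie diet 2 markers passed: Lrat fell by 0.34 and Retn rose by 0.23, and both passed without HCR 3 as well (-0.35 and 0.25). The mean of the 5 hepatocyte markers was between 0.53 and 0.72 on standard-diet arrays and between 0.075 and 0.56 on high-calorie arrays, with some overlap. It was between 0.60 and 0.67 on resveratrol arrays. What part a changed mix of cells had in the rise of the 9 genes was not tested.

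The genes whose log2 ratios followed each member most closely over the 14 arrays were found among 15029 other genes with a matched symbol, by Pearson's r. The groups are included in r, so it holds the shared response to diet, and it is a description only. Ehhadh was followed most closely by Bphl (r = 0.98), a serine hydrolase, Prdx6 (0.98), a peroxiredoxin, and Tlcd4 (0.97). For Acaa1b the closest were Acot13 (0.97), an acyl-CoA thioesterase, Slc25a10 (0.96), the mitochondrial dicarboxylate carrier, and Nr1i3 (0.95), the nuclear receptor CAR. Pex11a had Clstn3 (0.98), 4931406C07Rik (0.97) and Crat (0.97), and 4931406C07Rik was also the closest to Hsd17b4 (0.98), ahead of Lonp2 (0.96). Acaa1a, on its brighter probe, had Fam107b (0.94) and Cmbl (0.94). Abcd2 had no close follower (at most 0.78, Rbmx2), and its standard-diet values spanned less than those of any other member.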

How the data were processed

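Per the file headers, Agilent Feature Extraction 7.5.1 produced the deposited spot data, in which spot and local background intensity are listed for Cy3 and Cy5. A processed table deposited by the authors gives scores; their making is not stated in the sources used here, and they served as an alternative. Mean signals were corrected with normexp (offset 50), log2 ratios of Cy3 to Cy5 were normalised by loess within arrays, and 11 to 110 flagged spots were left out on each array of 43790 spots (2256 of them controls). Spots of a probe were averaged. Of 41174 probes, 20846 matched a single RefSeq gene (GRCm38.p6; the rest kept the files' names). The brightest probe stood for a gene, and a gene was tested if its Cy3 signal was well above background on 4 arrays or more. Limma 3.58.1 (R 4.3.3, package data.table in version 1.17.8) fitted the 3 groups in one model, called at an adjusted p under 0.05, and was tested on simulated data. No dye swap was made, so a probe's dye effect cancels between diets.

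The members and lists were chosen with earlier results of these data known. All 9 members were named. For other lists, up to 4 passing genes with the smallest adjusted p were named (up to 2 of those with the smallest p where none passed), and for likeness the 3 genes with the highest r. The pair tests were not among the designs fixed first. The acute phase genes, the dimmer Acaa1a probe and the motifs CCAAT and GGGCGG were added after seeing the data. Other settings tried were background correction, normalisation, the signal used, filters, probe choice, array weights, batches, brightness and leaving out each array. Replicate numbers were not taken as pairs, since the labels name no pairing. Of 13 same-numbered pairs, 4 had a correlation of deviations over 0.1 (range -0.19 to 0.30). Of 14 arrays, 7 were closest to an array of their own number. Whether mice of one number shared handling was not tested. Genes that the naming rule gives and that are absent from the text are not reported here.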

Additional observations from a re-analysis of the deposited data

Results flagged for a closer look

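Acaa1b on array HCR 3 was far from the other resveratrol arrays, at -1.34 against 0.54 to 0.79, a gap that took up 0.880 of the range of the 4 arrays. It was the only one of 27 sets of arrays (9 genes in 3 diets) with such a gap, at a level where chance alone flags about 1 set in 20. The sets share arrays and so are not independent, and the cause of the gap was not tested. The probe listed for both thiolases was lowest on the same array (-0.31 against 1.07 to 1.43 on the other 3). Without the array, the resveratrol minus high-calorie difference of Acaa1b was -0.51 in place of -1.003, and its difference from the standard diet was 0.87 in place of 0.38.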

How the results depend on the processing

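The 7 genes that rose on the high-calorie diet kept that direction in all 29 alternatives other than the deposited scores, and each passed in 26 to 28 of them. Some of the 29 could not move most of these genes. Quantile normalisation of average intensities left all ratios as they were, and the dimmer Acaa1a probe altered the values of Acaa1a alone. The count of members called was 7 and moved to 3 with the deposited scores (Ehhadh, Acaa1a and Pex11a), 4 with array brightness as a covariate, 8 with array quality weights (Abcd3 added) and 0 within the second processing day. All-gene calls fell as well, from 3084 to 413 of 31432 with the scores and to 449 with brightness, and rose to 7035 with array quality weights. With the scores the other 4 were also higher, by 0.26 to 0.60 score units (limma adjusted p from 0.0852 to 0.122). Leaving out single mice gave 6 to 8, with 1374 to 5995 genes called in all. For resveratrol against the high-calorie diet the count of 0 became 2 with no background correction (Ehhadh and Decr2), 1 with array quality weights (Ehhadh) and 1 with the dimmer Acaa1a probe, and 0 to 1 when single mice were left out. All-gene calls were 2699 with no background correction, 3045 with array quality weights and 1756 with the dimmer probe, against 1755. Against the standard diet the count of 1 became 2 with array quality weights, and 0 with no background correction, the scanner's processed signals, Cy3 alone, the deposited scores, the mean of all probes of a gene, the day block, the slide series block, brightness as a covariate, the dimmer Acaa1a probe, only the groups compared or the first processing day alone. Single mice gave 0 to 5 members called. All-gene calls against the standard diet were 164 with array quality weights and 4 to 65 in the settings with 0 members called, against 70. Where a smaller set of arrays does not account for a change, the cause was not tested.

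With the replicate number as a block, the counts were 7, 0 and 1. The labels name no pairing, and 7 of 14 arrays were closest to an array of their own number. All-gene calls with the block were 2884, 410 and 48, against 3084, 1755 and 70 without it. The 1 gene called against the standard diet was Crot (adjusted p = 0.0169 in limma) and not Acaa1a (0.0875). Only differences near 0 changed sign, none of them called: Abcd2 on the high-calorie diet was -0.014 with Cy3 alone and -0.00031 with the scores. With resveratrol against the high-calorie diet, Abcd2 was -0.0069 within the first slide series and ran from -0.012 to 0.056 when single mice were left out (negative without HC 4 or HCR 2). Crot was 0.0023 with brightness as a covariate and ran from -0.17 to 0.034 when single mice were left out (positive without HCR 2 or HCR 3). Over all genes the share of calls that were higher was 56.9% on the high-calorie diet and 79.0% with median centring, 72.0% with Cy3 alone and 80.1% with the scores; for resveratrol against the high-calorie diet it was 58.6%, and 25.8%, 26.5% and 31.9%. All-gene counts of calls on the high-calorie diet ran from 55 (second processing day) to 7035 (array weights) around 3084. Quantile normalisation of average intensities leaves log2 ratios as they are and so tested nothing.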
